A study of Homo sapiens with 22 samples.

Results

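Cluster 0 of the first single-cell experiment held 2161 of its 12531 cells, and the authors' state label put all of them in the drug-susceptible state. The members were the cells to which the authors' Seurat clustering gave the number 0, with no cell added or removed. They made up 22.3% of the 9688 drug-susceptible cells, with an exact Clopper-Pearson interval at 95% of 21.5 to 23.1% that covers counting error only. The other 7527 drug-susceptible cells lay in 7 clusters and the 2843 primed cells in 3 clusters.

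All cells came from WM989, a human melanoma line with a BRAF mutation, and none had been given a BRAF or MEK inhibitor. The first experiment profiled untreated cells that carried transcribed lentiviral lineage barcodes, after growth from sorted primed cells (high for EGFR and NGFR) and from a mixed population. It is 1 sample in 8 wells of the 10x instrument, wells 1 to 4 marked r1 and wells 5 to 8 marked r2, and the labels do not say which sort went into which well. A second set of 8 libraries, from barcoded WM989 cells split over 4 plates, compared an untreated plate with the PI3K inhibitor GDC-0941 (PI3Ki, 2 µM), recombinant TGFB1 (5 ng/mL) and LY2109761, an inhibitor of the TGFβ receptor (TGFBRi, 4 µM), each for 5 days and each in r1 and r2. The sample labels name 1 set of treatment libraries Mix and the other Primed, with no key to r1 and r2. Open chromatin was profiled by ATAC-seq in 12 libraries, 3 for each of the sorts Mix, EGFR_High, NGFR-High and EGFR-NGFR-High. These names are those of the labels. For ATAC-seq the paper's methods name a sort negative for both markers and no mixed one, so what Mix held is not settled here.

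At the passage from G1 to S phase, cyclin E with its kinase and the E2F factors switch on the genes that copy DNA. The MCM helicase is loaded onto origins in G1 by ORC, CDC6 and CDT1, and CDC45, the GINS complex and MCM10 turn it into a working fork when S phase starts. Core and linker histones of the replication-dependent kind are made later, in bulk, while DNA synthesis runs, and the genes of mitosis follow in G2.

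By the authors' phase call, 78.2% of the cluster 0 cells were in S phase, 18.7% in G1 and 3.05% in G2/M. Cluster 1 held 2049 cells, of which 67.1% were called S and 32.8% G2/M, and cluster 4 held 1202 cells, of which 73.3% were called G1. Seen from the phase call, cluster 0 took 39.3% of the 4300 drug-susceptible S cells, 16.4% of the 2473 G1 cells and 2.26% of the 2915 G2/M cells. The share of cluster 0 among the drug-susceptible cells of a well ran from 15.5% in well 1 to 32.5% in well 5, with an SD over wells of 5.6 percentage points. Summed over wells, r1 held 21.5% and r2 23.5%, a smaller gap than that among wells. The S share inside cluster 0 was 74.7% in r1 and 83.2% in r2. Wells 1, 2, 5 and 6 were mostly primed cells (56.9 to 79.7%) and held 30, 102, 27 and 23 cells of cluster 0, against 328, 808, 478 and 365 in wells 3, 4, 7 and 8.

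Median depth was 50552 UMIs (unique molecular identifiers, 1 per captured transcript) per cell in cluster 0, 57481 in cluster 1 and 45304.5 in cluster 4, and wells totalled between 35882876 and 177318308 UMIs. Over all wells 38 of 12531 cells shared their 10x cell barcode (the tag of a droplet, not of a lineage) with a cell of another well, and 6 of these were in cluster 0. Levels below are UMIs summed over the cells of a group and scaled to the same total for every group (CPM), and well values are given for wells 2, 3, 4, 7 and 8, which held at least 50 cells of each group compared. By the study's methods each population was split over a pair of wells when loaded, so wells of a replicate can share a culture, and values over wells are not values over independent cultures. Since the clusters were called from these same counts, ratios between clusters are descriptions with no test.

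The name of cluster 0 rests on CITED1, a transcriptional co-activator of pigment cells, UNG, which removes uracil from DNA, the helicase subunit MCM6, DTL, the substrate receptor that marks CDT1 for destruction in S phase, CDCA7, a partner of the chromatin remodeler HELLS, MCM10 and CCNE1, cyclin E1. Of these 7 markers, 5 had their highest level of the 8 drug-susceptible clusters in cluster 0. The markers were chosen with earlier results of these data known, so this count is a description and no support for the name. The share of all genes that were highest in cluster 0 was not counted. MCM10 was as high in cluster 1 (30.1 CPM) as in cluster 0 (30.0 CPM), and CITED1 was higher in cluster 10 (87.4 CPM) than in cluster 0 (74.9 CPM).

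DTL in cluster 0 was at 47.3, 39.4, 45.2, 82.4 and 79.0 CPM in wells 2, 3, 4, 7 and 8, against 43.8, 45.8, 43.6, 54.2 and 52.9 CPM in cluster 1 and 11.8, 6.21, 11.3, 33.8 and 33.5 CPM in cluster 4. Wells 7 and 8 (r2) were higher than the r1 wells in all 3 clusters, and cluster 4 lay below cluster 0 in each well while cluster 1 did so in 4 wells of 5. UNG in cluster 0 was at 33.7, 38.7, 36.5, 57.6 and 55.0 CPM, above cluster 1 in every well (23.4, 35.4, 27.8, 33.3 and 34.6 CPM) and above cluster 4 in every well (14, 16.8, 17.7, 31.0 and 31.2 CPM). The summed ratio of cluster 0 over cluster 4 was 3.47 for DTL and 2.17 for UNG, and over cluster 1 it was 1.2 and 1.43.

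CDCA7 was higher in cluster 0 than in both neighbours when all cells were summed. Its level was 70.2, 68.2, 73.8, 90.0 and 83.1 CPM in cluster 0, 30.4, 40.8, 36.1, 38.7 and 40.6 CPM in cluster 1, and 31.7, 40.5, 38.4, 59.9 and 61.0 CPM in cluster 4, so that cluster 0 overlapped with neither. Within a phase call the gap to cluster 4 was smaller or absent, since CDCA7 was at 90.8 CPM in the S cells of cluster 0 and 94.7 CPM in those of cluster 4 (ratio 0.959), and its G1 cells had a ratio of 1.22 over the G1 cells of cluster 4 and of 0.929 over those of the other drug-susceptible clusters. CCNE1 in cluster 0 was at 21.9, 19.1, 18.8, 27.2 and 30.5 CPM, above cluster 1 (15.7, 13.3, 11.9, 17.2 and 16.5 CPM) and cluster 4 (11.3, 11.7, 9.95, 20.6 and 18.6 CPM) in each well, although the ranges of cluster 0 and cluster 4 overlapped across wells. MCM10 went from 25.5, 21.0, 22.5, 41.5 and 41.5 CPM in cluster 0 to 6.49, 2.70, 3.01, 13.9 and 15.9 CPM in cluster 4.

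**Figure D1:**
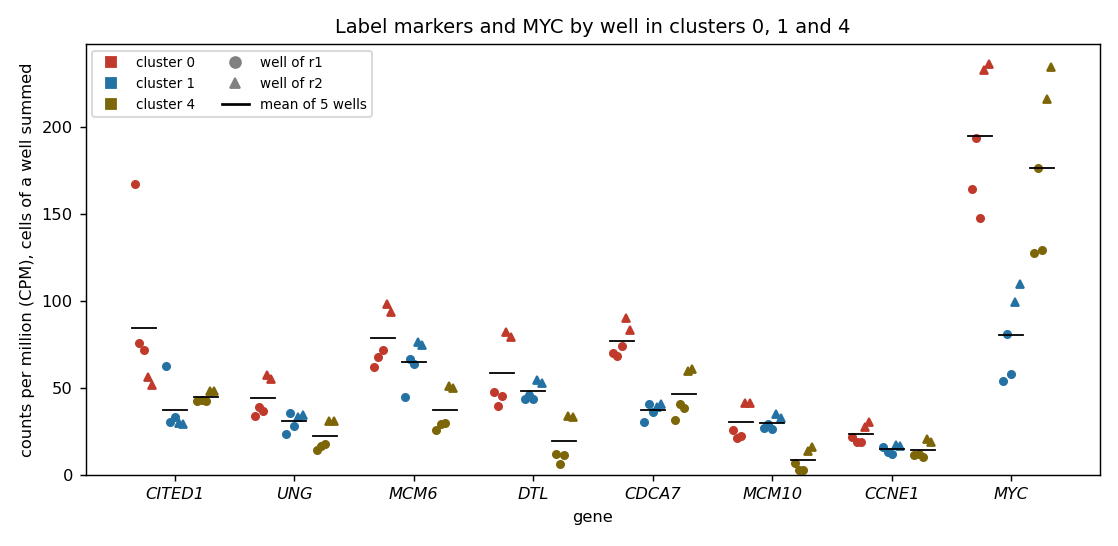
Level (CPM, y axis) of the 7 markers and MYC in wells 2, 3, 4, 7 and 8 for cluster 0, cluster 1 and cluster 4, 1 point per well (circles r1, triangles r2) with a line at the mean of the 5 wells. CDCA7 in cluster 0 (68.2 to 90.0 CPM) lies above every well of the other clusters, while MCM10 overlaps with cluster 1, and CITED1 in well 2 (167 CPM) lies far above the other wells.

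CITED1 behaved unlike the other markers. It was at 167 CPM in cluster 0 of well 2 and at 75.8, 72.0, 56.3 and 51.4 CPM in wells 3, 4, 7 and 8, against 62.4, 30.2, 33.0, 30.0 and 29.5 CPM in cluster 1 and 42.2, 43.0, 42.4, 47.9 and 48.2 CPM in cluster 4. Cluster 0 was the highest of the 3 in every well, with a ratio of 2.20 over cluster 1 and 1.53 over cluster 4. A UMI of CITED1 was found in 80.1% of cluster 0 cells and in 14% of primed cells, whose median depth was 58253 UMIs. After thinning every cell to 10000 UMIs the shares were 38.4% and 4.22%.

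Cluster 0 also held the markers of the drug-susceptible state and little of the primed state. SOX10, a regulator of the melanocyte lineage, was at 119 CPM against 132 CPM in cluster 1 and 133 CPM in cluster 4, and the pigment gene PMEL was at 2620 CPM against 1999 and 2313 CPM. A UMI of the primed marker AXL was found in 1.43% of cluster 0 cells against 63.0% of primed cells, and of NGFR in 1.53% against 44.5%. NT5E had a UMI in 59.7% of cluster 0 cells against 97.1% of primed cells, or in 18.4% against 77.0% after thinning. The summed level of the 15 primed state genes was 1472 CPM, 1178 CPM in cluster 1 and 1250 CPM in cluster 4, and 1211 CPM of the cluster 0 sum came from the single neuropeptide precursor VGF.

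The 25 leading genes were those with the largest ratio over the other drug-susceptible clusters among genes at 20 CPM or more that were higher in each of the 5 wells. The 24 named here were DTL, UNG, MCM6, MSH6, VGF, MCM10, CDCA7, CDC6, PAQR4, CITED1, CCNE1, UHRF1, MCM5, XRCC2, VWA5A, MCM3, SLC27A3, ELFN1-AS1, CDC25A, MCM4, MCM2, GINS2, EEF1A2 and TMEM121, from a ratio of 2.1 for DTL to 1.54 for TMEM121. This contrast chose them, and over all genes tested 34.5% were higher in all wells and 0.0526% passed a ratio of 2. Among cells called S the ratios over the other drug-susceptible clusters were smaller, from 1.03 for GINS2 to 1.62 for VWA5A with 1.28 for DTL, and their median was 1.25 where that of all cells was 1.72. Most have a place in DNA replication. MCM2 to MCM6 form the helicase with MCM7, CDC6 loads it and GINS2 belongs to the working fork, MSH6 recognizes mismatches behind it, XRCC2 acts in recombination repair, UHRF1 carries DNA methylation onto new strands, and the phosphatase CDC25A activates CDK2. VGF, SLC27A3 (a fatty acid transport protein), EEF1A2 (a translation elongation factor), VWA5A, PAQR4, TMEM121 and the antisense RNA ELFN1-AS1 are not known as parts of the replication machine. The sources used here do not say whether counting used strand, so ELFN1-AS1 cannot be separated from its host gene.

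**Figure D2:**
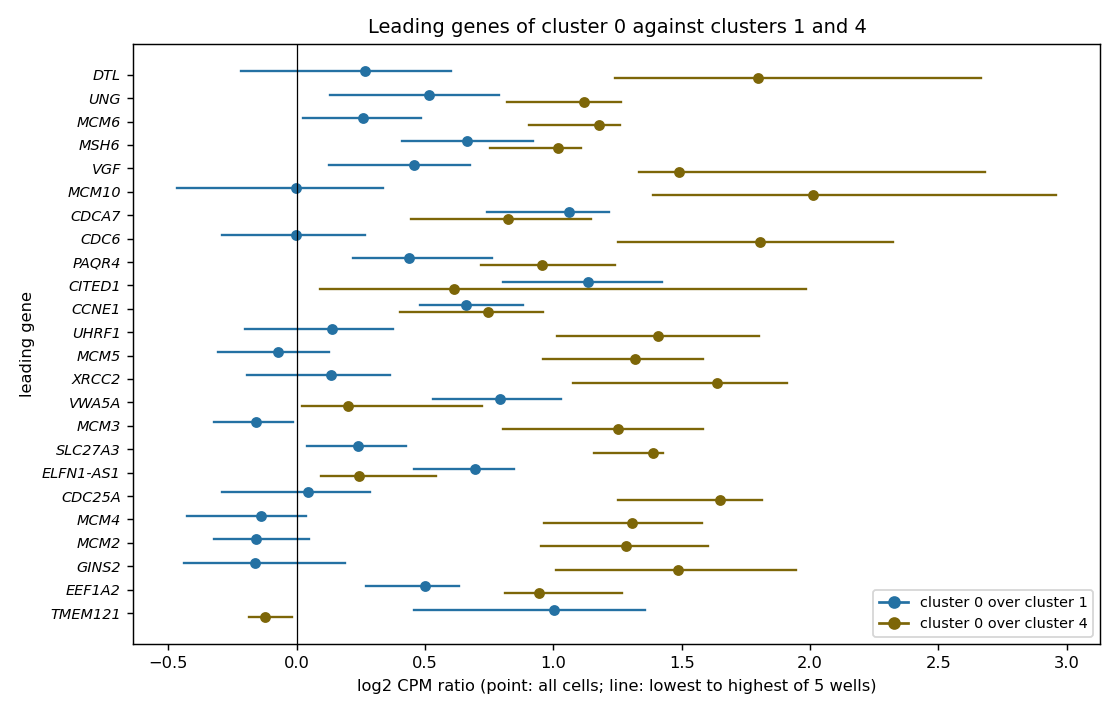
Log2 ratio of CPM (x axis) of 24 of the 25 leading genes in cluster 0 over cluster 1 and over cluster 4, with a point for all cells and a line from the lowest to the highest of the 5 wells. Against cluster 4, the lines of all genes plotted but TMEM121 lie right of 0, while against cluster 1 those of most helicase genes cross 0.

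Read against cluster 4 the 25 genes were nearly all up, and against cluster 1 they divided. Over cluster 4, 24 of 25 were higher in every well (background 52.1% of 5737 genes), with TMEM121 lower in every well (0.917 summed, background 16.1%). All genes together had a median ratio of 1.12 over cluster 4, or 0.16 on the log2 scale, so values against cluster 4 should be read from that level. Over cluster 1, 13 of 25 were higher in every well (background 28.7% of 5794 genes), 1 was lower in every well (MCM3, ratio 0.897, background 27.4%) and 11 were mixed. The 13 were UNG, MCM6, MSH6, VGF, CDCA7, PAQR4, CITED1, CCNE1, VWA5A, SLC27A3, ELFN1-AS1, EEF1A2 and TMEM121. In 8 of the 25 genes, all of them helicase, loading or repair factors (such as MCM10, CDC6, MCM5, MCM3, MCM4, MCM2 and GINS2), the highest drug-susceptible level was in cluster 1, and in 14 it was in cluster 0. For CITED1 and EEF1A2 it was in cluster 10, and for TMEM121 in none of these clusters. The genes were chosen as high in cluster 0, and the share over all genes was not counted.

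Against cluster 1, about as many genes were higher in every well (28.7%) as were lower (27.4%), but large differences were mostly downward. At 20 CPM or more, 4 of 5794 genes (0.069%) passed a ratio of 2 upward and 103 (1.78%) fell under 0.5, while with no minimum level the numbers were 1120 and 1100. The 10 leading upward were MYC, CITED1, CDCA7, TMEM121, TRIM47, HRK, VWA5A, FGD4, TFRC and CCND1. MYC, the growth regulator, was at 164, 194, 148, 232 and 236 CPM in cluster 0 and at 53.8, 80.9, 57.8, 99.4 and 110 CPM in cluster 1, with no overlap and a ratio of 2.36 (2.54 in r1 and 2.27 in r2). Cyclin D1, CCND1, was at 560 CPM against 335 CPM, and the transferrin receptor TFRC at 22.6 CPM against 13.3 CPM. Against cluster 4 the MYC ratio was 1.16, close to the median ratio of all genes.

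The 10 leading downward against cluster 1 were TOP2A, CDCA3, HIST1H1B, SPC25, HIST1H1A, CENPA, MKI67, NDC80, FAM83D and HIST2H2AC, with ratios of 0.126 to 0.173. The linker histone gene HIST1H1B was at 39.8, 33.0, 31.8, 71.0 and 75.8 CPM in cluster 0 and at 283, 327, 344, 327 and 329 CPM in cluster 1. TOP2A, the topoisomerase that untangles sister DNA, was at 21.3, 11.6, 13.0, 38.2 and 39.7 CPM against 167, 140, 157, 229 and 226 CPM. The clusters did not overlap for either gene, and in both the r2 wells of cluster 0 were above its r1 wells. Restricted to cells called S in both clusters, the ratios stayed low, at 0.172 for HIST1H1B and 0.180 for TOP2A, and those of CITED1 (1.74) and CDCA7 (1.84) stayed high.

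Against cluster 4, 129 of 5737 genes (2.25%) passed a ratio of 2 upward and 52 (0.906%) fell under 0.5. This balance was not stable, with 76 upward and 83 downward in r2 alone, 121 and 44 in r1 alone, 15 and 36 in S cells only and 1481 and 1569 with no minimum level. The 10 leading upward were ATP6V0D2, MCM10, ESCO2, CDC20, BLM, PKMYT1, CDC6, CLSPN, DTL and CDC45, of which ATP6V0D2, a subunit of the proton pump, led at 90.8 CPM against 21.4 CPM. The 10 leading downward were MGP, IGFBP7, SORBS2, FN1, CEBPD, MMP2, PCOLCE, MXD4, CBLB and PRELP, most of them matrix or secreted proteins. Fibronectin, FN1, was at 118, 26.1, 26.6, 67.9 and 61.6 CPM in cluster 0 and at 460, 107, 129, 354 and 288 CPM in cluster 4. Wells differed in FN1 level in both clusters, and within each well cluster 0 was the lower, by a ratio of 0.192 to 0.257.

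The gene lists were read by their part in the cycle. In each list the count of members at 20 CPM or more in either cluster compared is given, and their ratio was that of summed CPM. A member can reach this level through a single cluster, and the filter then favours a count as higher there. The shares over all genes rest on the same filter. Of origin licensing genes 12 of 15 were at this level, and all 12 were higher in cluster 0 than in cluster 4 in every well, 10 of them more than 2-fold (52.1% and 2.25% of all genes). Over cluster 1 only MCM6 was higher in every well, and GMNN, MCM3 and MCM7 were lower in every well. The sum of the licensing list was 1051 CPM in cluster 0, 1161 CPM in cluster 1 and 451 CPM in cluster 4.

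Most genes of the fork, of nucleotide supply and of repair were below cluster 1. Of helicase activation and fork genes, 8 of 12 were lower in every well than in cluster 1, and of polymerases and clamp genes 17 of 18. Against cluster 4, 12 of 16 and 16 of 22 listed genes were at this level, and all of these were higher in cluster 0 in every well. Of all genes, 27.4% were lower than in cluster 1 in every well and 52.1% were higher than in cluster 4. Nucleotide supply genes were lower than in cluster 1 in 6 of 7 cases. The ribonucleotide reductase subunit RRM2 was at 37.1, 22.6, 26.9, 87.1 and 81.2 CPM in cluster 0 and at 143, 122, 128, 204 and 215 CPM in cluster 1, and the exception, DCTPP1, had a ratio of 1.16. Of the 15 repair genes at the fork, the 11 at this level against cluster 4 were all above it, each more than 2-fold. Against cluster 1, repair genes were lower in 10 of 14 cases. Chromatin replication genes were mixed, with 5 of 10 lower than in cluster 1 in every well, 1 higher and a median ratio of 0.826.

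Replication-dependent histones and mitosis genes were the lists in which cluster 0 and cluster 1 differed most. All 7 histones at this level were below 0.5 of cluster 1, with a list sum of 592 CPM in cluster 0, 2904 CPM in cluster 1 and 414 CPM in cluster 4. All 19 mitosis genes were lower in every well, 16 of them below 0.5 (27.4% and 1.78% of all genes), with sums of 822 and 2927 CPM. Against cluster 4, 15 of the 20 mitosis genes were at this level, and all 15 were higher in cluster 0 in every well (52.1% of all genes).

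**Figure D3:**
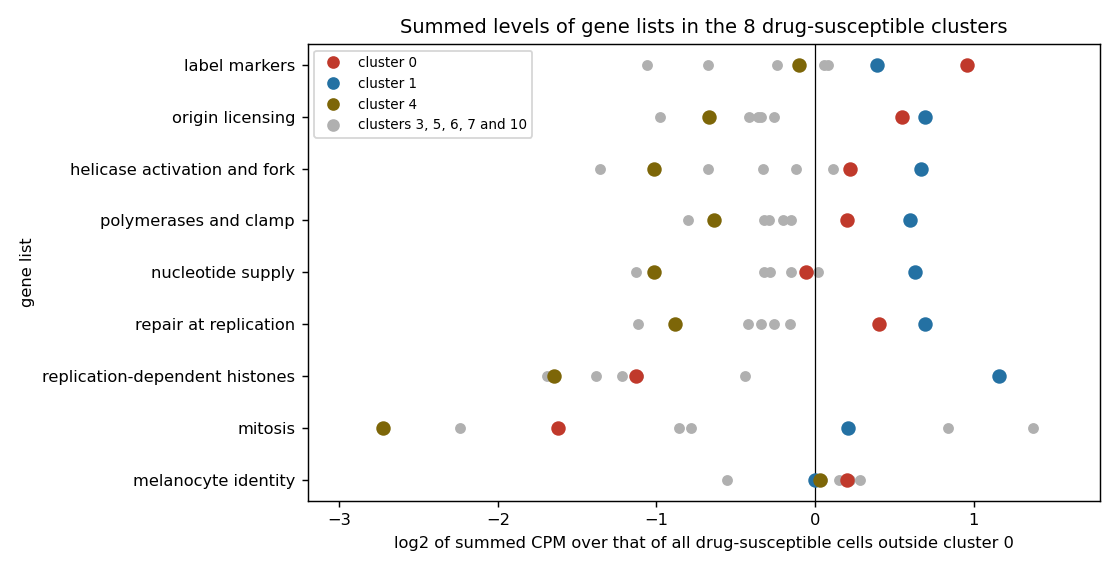
Log2 of the summed CPM of each gene list in each of the 8 drug-susceptible clusters over that of all drug-susceptible cells outside cluster 0 (x axis), 1 point per cluster. Licensing genes in cluster 0 (1051 CPM) lie near cluster 1 (1161 CPM), and histones (592 CPM against 2904 CPM) lie near cluster 4 (414 CPM).

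Of the cyclin and E2F genes 10 of 13 were higher than in cluster 4 in every well and 2 lower (52.1% and 16.1% of all genes), and against cluster 1, 4 of 15 were higher and 7 lower (28.7% and 27.4%). CCNE1 was highest in cluster 0 (23.1 CPM against 14.6 and 13.8 CPM in clusters 1 and 4). CCNE2, cyclin E2, was at 18.5 CPM against 20.5 and 5.44 CPM, and E2F1, an activating E2F, at 70.2 CPM against 82.8 and 27.6 CPM. Both turned between replicates, with ratios over cluster 1 of 0.642 in r1 and 1.23 in r2 for CCNE2 and of 0.713 and 1.11 for E2F1. CCNA2, cyclin A2, which acts from S phase on, was at 11.1 CPM against 44.5 CPM in cluster 1 and 3.88 CPM in cluster 4. CDKN1B, the inhibitor p27, was below both neighbours in every well, at 28.5 CPM against 41.1 and 42.3 CPM. CCND2 had no UMI in cluster 0.

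The list of ribosome biogenesis genes, which MYC is known to drive, holds MYC itself. Its other 9 genes were higher than in cluster 4 in every well in 9 cases and higher than in cluster 1 in 7, FBL and NOP56 being mixed (52.1% and 28.7% of all genes). With MYC, the list sum was 4737 CPM in cluster 0, below 5753 CPM in cluster 5 and 5212 CPM in cluster 6. None of the 10 genes had its highest drug-susceptible level in cluster 0. NPM1, a nucleolar chaperone, was at 1819.5 CPM against 1419 CPM in cluster 1 and 1490.2 CPM in cluster 4. Intermediate state genes (NFATC2, MGP, FN1 and SERPINE2) were all lower than in cluster 4 in every well and below 0.5 (16.1% and 0.906% of all genes). Melanocyte identity genes were close in all 3 clusters, with sums of 5797, 5055 and 5160 CPM.

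The members of cluster 0 were not alike. Its 1690 cells called S and 405 called G1 are compared here as a description, since the phase call itself reads S phase genes and 11 of the 25 leading genes are in the usual scoring lists. Of the 25 genes, 19 were higher in the S cells than in the G1 cells in both r1 and r2, against 34.5% of 5707 genes at 20 CPM or more. DTL was at 72.1 CPM in the S cells and 7.74 CPM in the G1 cells, a ratio of 9.33 (13.1 in r1 and 5.38 in r2). MCM10 was at 36.7 CPM and 2.92 CPM.

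Of the other leading genes, VGF, CITED1, VWA5A, SLC27A3 and EEF1A2 were higher in the G1 cells of cluster 0 in both replicates, 5 of 25 where 38.9% of all genes were. CITED1 was at 117 CPM in these G1 cells and 65.3 CPM in the S cells, with ratios of S over G1 of 0.571 in r1 and 0.732 in r2. VGF was at 1797 CPM and 1033 CPM. Compared within a phase call, 24 of 25 leading genes were higher in the G1 cells of cluster 0 than in the G1 cells of cluster 4, with ratios of 2.15 for CITED1 and 4.28 for VGF. At 20 CPM or more these were 14 of 15 genes, against 69.1% of all genes. In S cells 23 of 25 were higher than in the S cells of cluster 4 (background 67.2%), CDCA7 and TMEM121 being the exceptions. Against the S cells of cluster 1, 17 of 25 were higher (background 49.6%).

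Promoter sequence was read for the leading genes from RefSeq windows on GRCh38.p14, from 250 bases before to 50 bases after the transcription start, and 20 of 25 genes had one (those without included MCM5, VWA5A, MCM4 and EEF1A2). Each window was searched on both strands for 4 words of 8 letters that E2F factors are known to bind, TTTGGCGC, TTTCGCGC, TTTGCCGC and TTTCCCGC. A word was found in 13 of the 20 windows (65.0%), against 6.46% of the 4612 windows of genes at 20 CPM or more and 3.33% of all 27305 windows. Lists whose genes were mostly highest in cluster 1 held such words too. They were in 6 of 14 helicase activation and fork windows (42.9%) and 7 of 18 of polymerases and clamp (38.9%). For repair they were in 5 of 12 (41.7%), and for nucleotide supply in 1 of 6 (16.7%). Words on opposite strands can overlap and are then counted separately, as in MCM6 and MCM2. The stretches below show these words, in capitals, for DTL, the first leading gene, for the licensing factors MCM6, CDC6 and MCM2, for CDC25A and for CITED1.

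DTL, chr1:212035720-212035767, plus strand: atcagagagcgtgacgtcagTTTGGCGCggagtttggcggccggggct

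MCM6, chr2:135876502-135876615, minus strand: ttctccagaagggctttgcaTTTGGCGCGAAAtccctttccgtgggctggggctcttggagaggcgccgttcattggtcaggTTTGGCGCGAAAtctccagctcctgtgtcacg

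CDC6, chr17:40287866-40287908, plus strand: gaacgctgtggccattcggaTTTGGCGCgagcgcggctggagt

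MCM2, chr3:127598393-127598440, plus strand: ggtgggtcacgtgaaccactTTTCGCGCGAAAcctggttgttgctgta

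CDC25A, chr3:48188434-48188481, minus strand: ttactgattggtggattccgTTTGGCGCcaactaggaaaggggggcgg

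CITED1, chrX:72307143-72307190, minus strand: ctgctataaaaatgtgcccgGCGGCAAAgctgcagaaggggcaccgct

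The word lay 8 bases before the start in DTL and 13 bases before it in CITED1, where it reads on the opposite strand, and MCM6 held 4 words. The 7 leading genes with a window and no such word were UNG, VGF, MCM10, CCNE1, SLC27A3, ELFN1-AS1 and TMEM121. A match of letters is not a bound site, and other E2F sequences were not searched.

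The 10 genes that were lowest in cluster 0 by the same rule were CENPA, TOP2A, DLGAP5, CDCA3, CENPE, FAM83D, KIF14, PLK1, UBE2C and GTSE1, all of mitosis or G2, with ratios of 0.163 to 0.221 over the other drug-susceptible clusters (background 21.0% lower in all wells and 1.12% below 0.5). Their promoters carried other letters. The core of the CHR element of G2/M genes, TTTGAA, searched on both strands, was in 7 of the 8 windows found (87.5%), against 0 of 20 for the leading genes, 9.24% of windows of genes at 20 CPM or more and 15.4% of all windows. An E2F word was in 1 of the 8. The stretches of TOP2A, the DNA untangling enzyme, of CDCA3, of the mitotic kinase PLK1 and of CENPA, the histone of centromeres, show the letters TTTGAA, or TTCAAA where they read on the opposite strand, in capitals.

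TOP2A, chr17:40418022-40418110, minus strand: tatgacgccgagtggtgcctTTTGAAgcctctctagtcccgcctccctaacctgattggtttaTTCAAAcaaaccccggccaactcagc

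CDCA3, chr12:6851264-6851309, minus strand: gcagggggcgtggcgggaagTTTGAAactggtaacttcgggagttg

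PLK1, chr16:23678840-23678885, plus strand: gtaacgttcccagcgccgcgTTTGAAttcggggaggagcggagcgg

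CENPA, chr2:26786018-26786063, plus strand: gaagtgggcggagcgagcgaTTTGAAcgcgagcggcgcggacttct

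The promoters of all 20 leading genes with a window overlapped an ATAC-seq peak in each of the 3 Mix libraries and in all 12 libraries, where 95.4% of the windows of genes at 20 CPM or more had a peak in all 3 Mix libraries. ATAC-seq was not done per cluster, so the values are of whole sorts. The peak's fold enrichment over local background in Mix was 66.3, 73.1 and 68.7 at DTL (69.4 ± 3.4, SD, n = 3) and 86.5, 92.4 and 86.6 at CDC25A (88.5 ± 3.4, SD, n = 3). It was 16.6, 10.4 and 9.20 at CITED1 (12 ± 4.0, SD, n = 3) and 7.02 ± 0.27 (SD, n = 3) at TMEM121, the lowest of the 4 given. At DTL the means of the sorts lay closer together than the libraries of NGFR-High did, with 67.7 ± 3.9 in EGFR_High, 73.0 ± 8.5 in NGFR-High and 69.8 ± 4.6 in EGFR-NGFR-High (SD, n = 3 each).

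The treatment experiment gave cells that the clusters of the first experiment did not use, and S and G1 cells were compared in it. UMIs were summed over the drug-susceptible cells of each phase call in each of the 8 libraries and tested by edgeR's quasi-likelihood test with Benjamini-Hochberg adjustment over 15358 genes at 0.05, two-sided, with library as a block. By the study's methods each culture was split over all plates, so the libraries of a replicate share a culture. The test counted the 8 libraries as separate. Its SEs and p-values, and the counts of libraries below, are thus not over independent cultures. Of the 25 leading genes 21 were higher in S cells, 3 were lower and 1 did not pass. Of all genes, 25.4% were higher and 26.2% lower. The 15358 genes were not limited to the 20 CPM or more by which the 25 were chosen. The shares of all genes in this test are thus not matched for level. Of the 14 genes that are not in the usual S and G2/M scoring lists, 10 were higher, 3 lower and 1 did not pass, with a median log2 change of 0.49, where that of all genes was −0.02. The sources used here do not state the scoring lists, and phase calls can carry along genes that move with them.

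MCM10, outside the scoring lists, had 37.4, 41.3 and 43.4 CPM as lowest, median and highest S value and 4.07, 6.67 and 8.74 CPM in G1. The groups lay far apart, with S above G1 in 8 of 8 libraries and a log2 change of 2.69 (SE 0.0866, edgeR adjusted p = 1.14e-16). XRCC2 went from 14.7 to 26.4 CPM in G1 to 58.2 to 67.7 CPM in S (log2 change 1.62, SE 0.0633), and CDC25A from 5.64 to 9.99 CPM to 26.6 to 28.5 CPM (1.88, SE 0.0651). CCNE1 rose less, from 11.3, 13.0 and 14.6 CPM (lowest, median, highest) in G1 to 15.8, 20.5 and 25.8 CPM in S, a log2 change of 0.63 (SE 0.0447, edgeR adjusted p = 1.19e-10). In 7 of these 14 genes (MSH6, MCM10, PAQR4, CCNE1, XRCC2, MCM3 and CDC25A) the S and G1 libraries did not overlap, against 7.25% of all genes with S wholly above G1. In the other 7 the ranges overlapped, so none had S wholly below G1 (background 1.44%).

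The 3 lower genes were CITED1, VWA5A and EEF1A2. CITED1 was at 19.0, 43.0 and 51.4 CPM (lowest, median, highest) in S and at 25.6, 52.9 and 66.9 CPM in G1. Its ranges overlapped across libraries, and S was below G1 in each of the 8 libraries (log2 change −0.39, SE 0.0392, edgeR adjusted p = 3.21e-08). VWA5A changed by −0.34 on the log2 scale (SE 0.0401) and EEF1A2 by −0.09 (SE 0.0359, edgeR adjusted p = 0.035), and both were also higher in the G1 cells of cluster 0. With no library block, which takes up treatment as well as replicate, the CITED1 call was lost (log2 change −0.38, edgeR adjusted p = 0.168). The EEF1A2 call was lost in DESeq2 (adjusted p = 0.0715), with no library block (0.756), in untreated libraries only (0.498) and without PI3Ki r2 (0.0508), TGFB1 r2 (0.0603) or TGFBRi r2 (0.127). VGF and SLC27A3, higher in the G1 cells of cluster 0 as well, were instead higher in S here, by 0.25 and 0.35 on the log2 scale. The VGF call was lost with no library block (0.15, adjusted p = 0.777), as was that of ELFN1-AS1 with no library block (adjusted p = 0.542) and in DESeq2 (adjusted p = 0.0747). TMEM121 had a log2 change of 0.01 and did not pass. MYC, which led cluster 0 over cluster 1, was lower in S in 8 of 8 libraries, with a log2 change of −0.63 (SE 0.0212, edgeR adjusted p = 2.71e-16).

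**Figure D4:**
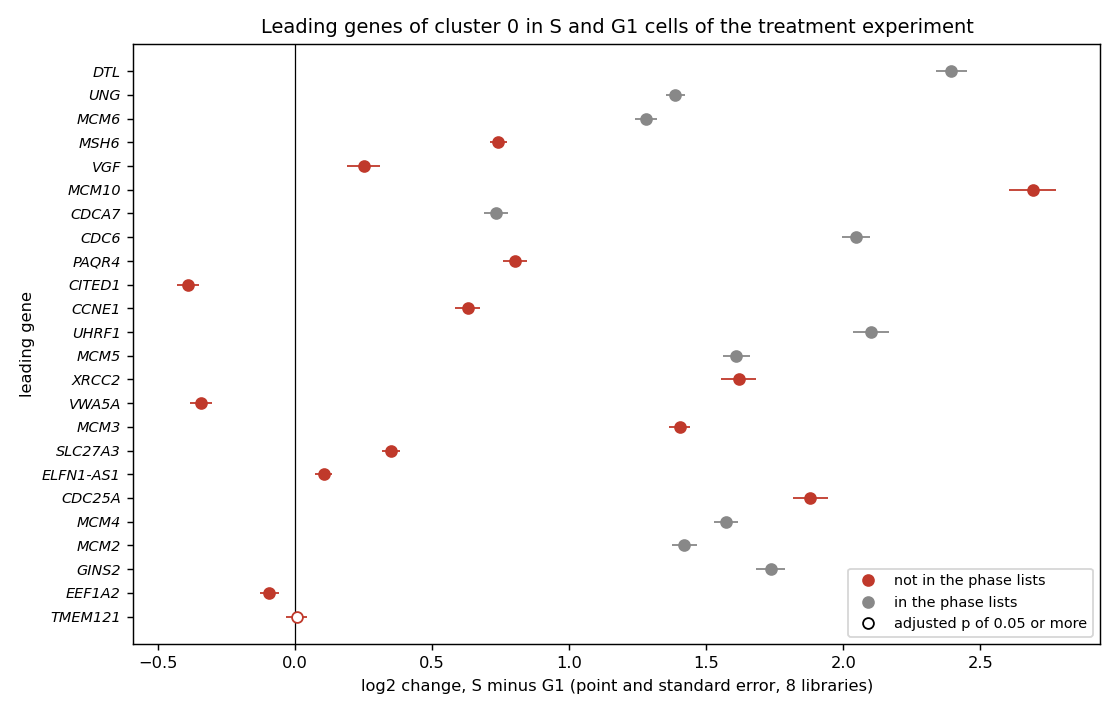
Log2 change (x axis) of S against G1 drug-susceptible cells of the treatment experiment for 24 of the 25 leading genes, with bars for the SE over 8 libraries, genes of the phase scoring lists in grey and an open mark where the edgeR adjusted p was 0.05 or more. MCM10 (2.69) lies at the right, and CITED1 (−0.39) and VWA5A (−0.34) lie left of 0. Libraries of a replicate share a culture, so the SE is not over independent cultures.

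In the same test the lists of S phase and those of G2/M were mostly higher in S cells. All members of the helicase activation (16 of 16), polymerase (22 of 22), nucleotide supply (7 of 7), chromatin replication (10 of 10) and fork repair (15 of 15) lists were higher in S cells, with 12 of 15 licensing genes and 19 of 20 histones, against 25.4% of all genes. Members that are also in the usual scoring lists were not set apart in these counts. Of the mitosis genes 15 of 20 were higher and 3 lower (median log2 change 0.87), and of the usual G2/M scoring genes 48 of 54 were higher. If the phase call used the usual lists, it read such genes, so the counts of these lists were partly set by the call. The licensing gene ORC4 did not pass, with a log2 change of 0.02 (SE 0.0303). HIST1H1B, far below cluster 1 in cluster 0, had the large log2 change of 3.18 (SE 0.0528). The 10 leading downward against cluster 1 were all higher in S cells, and of the 10 leading upward 2 were higher and 6 lower in S cells. Melanocyte identity genes were lower in S in 8 of 11 cases (26.2% of all genes) and higher in 1.

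**Figure D5:**
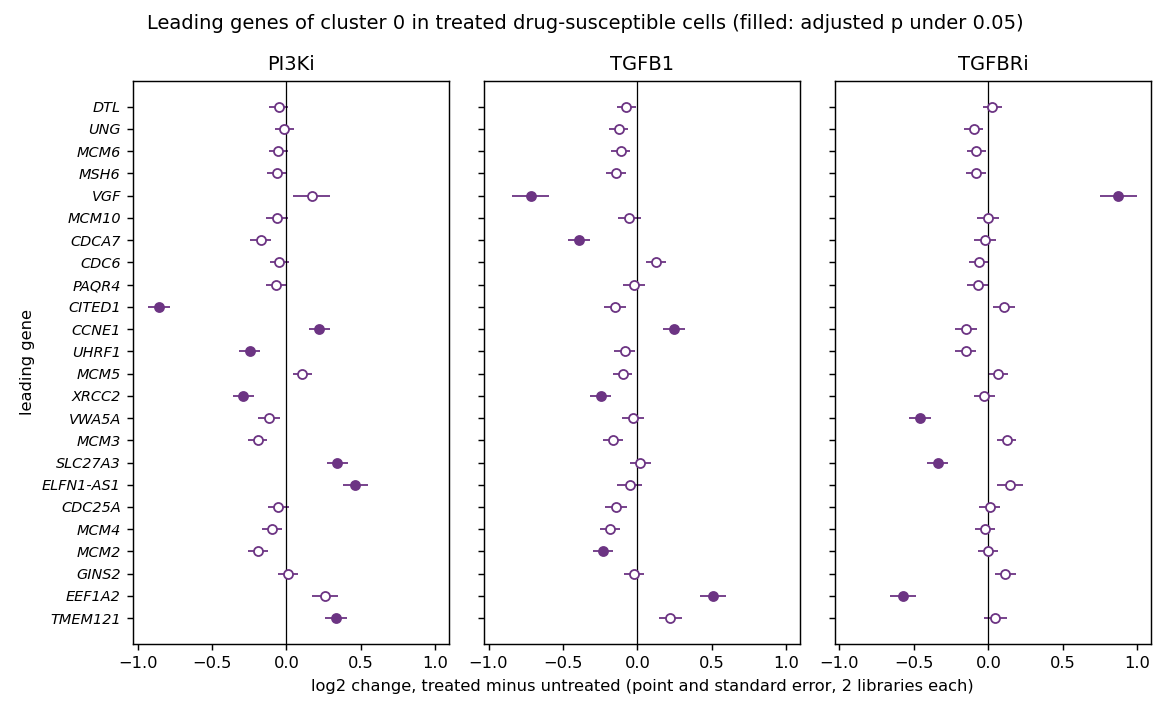
Log2 change (x axis) of 24 of the 25 leading genes in drug-susceptible cells under each treatment against the untreated plate, 2 libraries each, with bars for the SE and filled marks where the edgeR adjusted p was under 0.05. CITED1 under PI3Ki (−0.86) and VGF under TGFB1 (−0.72) and TGFBRi (0.87) lie farthest from 0.

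The leading genes were then followed under treatment, in UMIs summed over all drug-susceptible cells of a library, with replicate as a term of the edgeR model over 17914 genes. The 3 treatments share the untreated libraries. In such sums fewer cells of a phase and less RNA per cell cannot be told apart, and the S share of drug-susceptible cells was 37.2 and 38.5% in the untreated libraries, 33.9 and 32.4% under PI3Ki, 33.5 and 31.2% under TGFB1 and 40.1 and 37.7% under TGFBRi (r1 and r2). G1 shares were 33.4 and 31.3%, 43.5 and 43.8%, 40.3 and 39.7%, and 30.6 and 30.8% in the same order. Those of G2/M were 29.4 and 30.2%, 22.6 and 23.9%, 26.2 and 29.1%, and 29.2 and 31.6%. Of the 25 genes 13 passed under at least 1 treatment, where 23.6% of all genes did. The 17914 genes were not limited to the 20 CPM or more by which the 25 were chosen. The shares of all genes given for the treatments are thus not matched for level.

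Under PI3Ki 4 of 25 rose (background 5.89%) and 3 fell (background 6.22%). CITED1 was at 39.9 and 46.7 CPM in the untreated libraries and at 19.3 and 25.3 CPM under PI3Ki, with no overlap, a log2 change of −0.86 (SE 0.0729, edgeR adjusted p = 1.99e-08). Within S cells alone it was at 45.6 and 51.4 CPM untreated and 19.0 and 22.8 CPM under PI3Ki, a log2 change of −1.14. The part of the phase shares in this fall was not tested. UHRF1 (−0.25) and XRCC2 (−0.29) also fell, but in S cells alone their changes were −0.04 and −0.11 and did not pass. ELFN1-AS1 (0.46), SLC27A3 (0.34), TMEM121 (0.33) and CCNE1 (0.22) rose, TMEM121 not passing in S cells alone. No licensing gene (0 of 15) and no helicase activation gene (0 of 16) passed, while 15 of 20 histones and 15 of 20 mitosis genes fell.

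Under TGFB1 2 of 25 rose (background 8.56%) and 5 fell (background 6.32%). Cells labelled primed were left out of these sums. They were 1577 of 5419 and 1757 of 5615 cells under TGFB1, and 94 of 4152 and 165 of 3692 untreated (r1 and r2). For primed cells, the paper states that TGFB1 seemed to raise VGF further. In the drug-susceptible cells VGF was at 784 and 1341 CPM untreated and at 388 and 989.6 CPM under TGFB1 (r1 and r2). The groups overlapped, r2 was higher than r1 on every plate, and with the replicate term the log2 change was −0.72 (SE 0.123, edgeR adjusted p = 0.000183). CDCA7 was at 46.5 and 48.9 CPM untreated and at 36.7 and 36.6 CPM under TGFB1, a log2 change of −0.39 (SE 0.0734) that was −0.23 within S cells and still passed. XRCC2 (−0.25) and MCM2 (−0.23) fell in the sums and did not pass in S cells alone, while EEF1A2 (0.51) and CCNE1 (0.25) rose. Of the 10 leading downward against cluster 4, 8 rose and none fell.

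Under TGFBRi 1 of 25 rose (background 1.22%) and 3 fell (background 1.59%). VGF was at 1450.2 and 2379 CPM, against the untreated 784 and 1341 CPM, a log2 change of 0.87 (SE 0.123, edgeR adjusted p = 0.000104). EEF1A2 fell to 16.7 and 24.9 CPM from 30.4 and 31.3 CPM (log2 change −0.57, SE 0.089), VWA5A by −0.46 and SLC27A3 by −0.34 on the log2 scale. Each of these 4 also passed within S cells. VGF and EEF1A2 had changes of opposite sign under TGFB1 and TGFBRi, each measured against the shared untreated libraries. No gene of the licensing, helicase, polymerase, nucleotide, chromatin or repair lists passed under TGFBRi.

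The replicate term decided many of these calls. Without it, CITED1 (adjusted p = 0.00327), SLC27A3 and ELFN1-AS1 under PI3Ki and CDCA7 under TGFB1 still passed in edgeR and the other 14 of the 18 changes did not, VGF among them (adjusted p = 0.33 under TGFB1 and 0.528 under TGFBRi). CCNE1 under PI3Ki (edgeR adjusted p = 0.0477) and under TGFB1 (edgeR adjusted p = 0.0233) was lost in DESeq2 as well. With each library left out in turn, 7 of the 18 changes passed every time (CITED1 and ELFN1-AS1 under PI3Ki, CDCA7 and EEF1A2 under TGFB1, and VGF, VWA5A and EEF1A2 under TGFBRi) and 11 were lost at least once, the lone library of an arm being assumed to vary like the others. Among these, SLC27A3 was lost under PI3Ki without untreated r2 (edgeR adjusted p = 0.203) or PI3Ki r2 (0.0574) and under TGFBRi without untreated r1 (0.301).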

How the data were processed

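The deposited single-cell values are raw UMI counts for each gene in each cell, from the authors' Cell Ranger runs against hg38 joined with no adjustment for depth. The authors had filtered on genes per cell (low, and high as likely doublets) and on the mitochondrial percent, and no doublet caller was run here. The deposited metadata give well, replicate, cluster, state, phase and percent values per cell and were used as they stand. The phase scores that the authors deposited were not tested. For ATAC-seq the authors deposited peaks called per library by MACS2 2.1.1.20160309 after Bowtie2 2.3.4.1, with fold enrichment as a ratio over local background and the −log10 q-value. Cell Ranger's version and annotation are not given in the sources used here.

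Counts were summed over cells and scaled to CPM, keeping genes at 20 CPM or more in either group of a comparison. Wells with at least 50 cells of both groups were compared. Intervals are exact Clopper-Pearson (95%). The members and lists were chosen with earlier results of these data known. Named genes are the 25 highest and 10 lowest of cluster 0 against the other drug-susceptible clusters, ranked by summed ratio among those moving the same way in all 5 wells, and 10 each way against clusters 1 and 4, with the members of the lists. Shares of cells with a UMI are also given after thinning each cell to 10000 UMIs, which left out 0 cells.

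The test of treatment counts was that of edgeR 4.0.16 under R 4.3.3 (filterByExpr, TMM factors of 0.934 to 1.06 in the treatment model, quasi-likelihood test, Benjamini-Hochberg). The treatment model left 3 and the phase model 7 residual degrees of freedom. Standard errors are the log2 change divided by the root of F. The methods grew 2 cultures in parallel and split each over the 4 plates, so replicate pairs the libraries, and the r2 minus r1 differences correlated across genes between treatments (Pearson's r 0.246 to 0.358). The replicates are Mix and Primed in the sample titles but r1 and r2 in the metadata, with no key between these names. P-values measure the spread between these libraries. In the phase model, libraries of a replicate count as separate although they share a culture. On simulated data with 200 genes changed 2-fold, 80.5% were recovered for PI3Ki against untreated (17914 genes) and 97.5% for S against G1 (15358 genes). False calls were 8 and 12. The simulation gave all genes a single dispersion (spread beyond counting error) and no difference between r1 and r2, so these rates need not hold for the real libraries. DESeq2 1.42.0, other scalings and filters, S or G1 cells only and omitted libraries were alternatives, and leaving out well 2 was chosen after seeing the data. Promoters and peaks were compared with bedtools 2.31.1, at least 1 base overlapping, in Python 3.11.15. 1 of the 25 leading genes enters the counts but is not reported here by name. WM983B cells and UCell scores were not used here.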

Additional observations from a re-analysis of the deposited data

Results flagged for a closer look

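In cluster 0 the CITED1 level of well 2 stood apart from the other 4 wells compared, at 167 CPM, with a gap to the next well of 0.789 of the whole range. Well 2 held mostly primed cells, and its 102 cells of cluster 0 had a median depth of 76325.5 UMIs. It was 1 of 37 sets of well values examined, and chance flags about 1 in 20. The part of the depth and of the primed share in this value was not tested.

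For 5 of the 25 leading genes the ratio of cluster 0 over cluster 1 lay above 1 in both r2 wells compared and below 1 in all 3 r1 wells compared, and this difference between replicates was not tested. How many of all genes had this pattern was not counted. The ratio was 1.25 in r2 and 0.807 in r1 for MCM10, 1.11 and 0.844 for MCM5, 1.25 and 0.870 for CDC25A, 1.05 and 0.807 for MCM4, and 1.13 and 0.754 for GINS2. All 5 act in replication, as do most of the 25, and the S share of cluster 0 was 74.7% in r1 and 83.2% in r2.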

How the results depend on the processing

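Ratios between clusters rest on counts of 1 sample, and lists of genes past a ratio of 2 depend on the minimum level. Against cluster 1, 107 genes passed at 20 CPM and 2220 with no minimum (84 to 122 with a replicate left out). Against cluster 4, 181 passed, 390 at 5 CPM, 3050 with no minimum and 51 in S cells only (159 to 165 with a replicate left out). Against the other drug-susceptible clusters, 67 passed, 2712 with no minimum, 31 in S cells only (all lower) and 35 in G1 cells only (64 to 66). Without well 2 the counts were 105, 163 and 69. The share of 22.3% moved between 21.5 and 23.5% with a replicate left out. G1 cells could not be compared with cluster 1. In G1 cells only, 4 genes turned against the other drug-susceptible clusters on the log2 scale, CDCA7 (−0.11), CDCA3 (0.48), FAM83D (0.33) and PLK1 (0.14).

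Between S and G1 cells 7927 genes changed, 4135 with no library block (14212 genes tested), 5033 in untreated libraries only, and 7387 to 7637 with a library left out. TMEM121, which did not pass, turned to −0.0021 (DESeq2), −0.0041 (RLE size factors), −0.00073 (no block), −0.012, −0.0031 and −0.017 (without untreated r1, untreated r2 and TGFBRi r1, up to 0.037 without TGFBRi r2). Under PI3Ki 2170 genes changed, 570 with no replicate block, and 632 to 3286 with a library left out (1237 and 825 without untreated r1 and r2, 972 and 632 without PI3Ki r1 and r2, 3280 and 3286 without TGFBRi r1 and r2). Under TGFB1 2665 changed, 1189 with no block, 5324 in all cells, and 988 to 3722 (1547 and 1469 without untreated r1 and r2, 988 without TGFB1 r1). Under TGFBRi 503 changed, 326 by DESeq2, 47 with no block, and 206 to 1247 (206 without untreated r2, 1247 without TGFBRi r1). VGF under TGFB1 did not pass without TGFB1 r1 (−0.40). Of 952 alternative values of single genes 803 kept direction and side, 68 no longer passed, 71 moved by more than the spread over wells and 10 turned. The cause was not tested. Of the 20 promoters with a peak, 19 kept it at a −log10 q of 10. How small a change 2 libraries a treatment can detect was not tested.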
